A study of Mus musculus with 8 samples.

Results

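The genes described here are 39 nucleolar ribosome biogenesis factors, taken by symbol from a written list, out of 22065 named genes in the count table. All 39 were in the table and all 39 passed the expression filter, together with 16405 other genes (16444 tested in all). They divide by role into 4 genes of RNA polymerase I transcription, 3 core proteins of box C/D snoRNPs, 4 core proteins of box H/ACA snoRNPs, 4 nucleolar scaffold and chaperone proteins, 12 small subunit processing factors, 10 large subunit assembly factors and 2 other nucleolar regulators.

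Ribosomes are built in the nucleolus. RNA polymerase I transcribes a long precursor rRNA, small nucleolar RNAs (snoRNAs) guide chemical modification and cleavage of this precursor, and assembly factors then shape it into the small and the large subunit together with ribosomal proteins. Hematopoietic stem cells (HSCs) are known for a low rate of protein synthesis at steady state, and ribosome production in blood cells generally goes up when they leave quiescence and divide.

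RNA-seq was done on HSCs sorted from bone marrow of C57BL/6 mice of 8 to 10 weeks, 4 libraries from Mitol Δ/Δ mice (Mitol knockout in the labels) and 4 from controls. Mitol Δ/Δ mice carried Mitol Flox/Flox and MX1-cre +/−, a Cre that is induced through interferon signalling and acts in the hematopoietic lineage, and control mice carried Mitol Flox/Flox without MX1-cre. Both groups had received Poly:IC, and cells were taken 1 week after it. Each library was made from total RNA of 100 cells in the CD150+ CD48− EPCR+ Lineage− gate. The authors define long-term HSCs by these markers together with c-Kit (CD117). In such bulk libraries fewer cells of a kind and less RNA per cell cannot be told apart. The labels do not say that replicates came from separate mice, so p-values measure the spread between these libraries, and no batch is named.

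Counts on named genes ran from 7214935 to 12398138 per library. Marchf5, which encodes MITOL, had normalized counts between 232 and 308 in Mitol Δ/Δ and between 262 and 333 in control libraries (edgeR quasi-likelihood test, log2 fold change -0.15, adjusted p = 0.498), and its total count thus carries no mark of the deletion. Of 8 HSC and gate markers, all 8 were in the table, 2 had a fitted log2 fold change above 0 and 6 below it. Hlf and Kit, which encodes c-Kit, were among those called lower in Mitol Δ/Δ, with log2 fold changes of -0.79 and -0.75 (edgeR, adjusted p = 0.00381 and 0.00705, in each case with 4 of 4 libraries below every control library, and called in every fit with a library left out). Procr, which encodes EPCR of the gate, had a log2 fold change of -0.34 and was not called (edgeR, adjusted p = 0.179). The 2 above 0 were Slamf1, which encodes CD150 of the gate, and Ly6a, with log2 fold changes of 0.56 and 0.76 (edgeR, adjusted p = 0.0501 and 0.0606, with 4 and 3 of 4 libraries above every control). DESeq2 called both (adjusted p = 0.0117 and 0.0107). Cd48, which the gate excludes, was low but higher in Mitol Δ/Δ, at 22.2 to 63.4 normalized counts against 4.49 to 21.7 (edgeR, log2 fold change 1.72, adjusted p = 0.0450, 4 of 4 libraries above every control). That call was lost without Mitol Δ/Δ replicate 1, 2 or 3 or control replicate 1, 2 or 4 (edgeR, adjusted p from 0.0836 to 0.138). Over all tested genes, 1386 (8.43%) passed an adjusted p of 0.05, 770 with a higher and 616 with a lower value in Mitol Δ/Δ. With upper quartile scaling these numbers were 594 and 845, and with library totals alone 602 and 829.

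Among the members, 7 of 39 (17.9%) carry annotated snoRNA genes inside the gene on the same strand, against 1.74% of the 14059 protein-coding genes of the table. Together they host 21 snoRNAs of GENCODE release M39. The hosts are Nop56, Nop58, Dkc1, Ncl, Wdr43, Tsr1 and Gnl3. Thus 2 of the 3 members that encode core proteins of the box C/D snoRNP are themselves hosts of box C/D snoRNAs. In 8 of the 21 snoRNAs an exact C box, TGATGA, lies within the first 20 bases and a D box, CTGA, within the last 15 bases. One example from each of 5 hosts is shown to make the RNA that these proteins bind visible, read from GRCm39 on the strand of the gene, with the C box and the D box in capitals.
Snord110, within Nop56, chr2:130117426-130117493, plus strand: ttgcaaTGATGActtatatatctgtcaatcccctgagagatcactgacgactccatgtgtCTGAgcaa
Snord11, within Nop58, chr1:59743949-59744032, plus strand: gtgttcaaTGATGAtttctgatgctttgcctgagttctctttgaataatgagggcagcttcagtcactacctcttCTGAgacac
Snord82, within Ncl, chr1:86283983-86284052, minus strand: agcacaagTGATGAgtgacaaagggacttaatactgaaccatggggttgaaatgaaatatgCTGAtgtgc
Snord92, within Wdr43, chr17:71938276-71938360, plus strand: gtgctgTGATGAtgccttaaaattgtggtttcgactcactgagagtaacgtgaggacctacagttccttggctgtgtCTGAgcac
Snord69, within Gnl3, chr14:30736244-30736323, minus strand: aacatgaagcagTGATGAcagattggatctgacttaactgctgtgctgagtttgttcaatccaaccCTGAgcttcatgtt
The stretch between the boxes differs from one to the next, and it is there that such RNAs pair with the rRNA. Of the 21 snoRNAs, 10 had a row in the count table, and 3 of these passed the expression filter. Snord110 averaged 11.97 ± 6.19 normalized counts over Mitol Δ/Δ and 12.5 ± 3.95 over control libraries (SD, n = 4 each), and Snord53, in Wdr43, had 23.4 ± 4.00 and 28.6 ± 10.6. Gm22858, also in Wdr43, had 23.3 ± 4.68 and 23.0 ± 4.94. None of these 3 was past the threshold (edgeR quasi-likelihood test, adjusted p between 0.631 and 0.991). A count on a snoRNA row cannot be told apart from reads of the host's unspliced RNA.

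The question for the members was whether the transcripts of ribosome production differ between Mitol Δ/Δ and control HSCs 1 week after deletion. The fitted log2 fold change was above 0 in 38 of 39 members, where 47.7% of all tested genes were above 0, and its median was 0.22, where the median of all tested genes was -0.020. With upper quartile scaling or library totals alone the number above 0 was 34 in both, and with limma-voom it was 37. With 1 library left out it ranged from 32 (without control replicate 4) to 38, with 35 without Mitol Δ/Δ replicate 2. Single members seldom passed the test: 1 of 39, Nop16, was higher in Mitol Δ/Δ at an adjusted p under 0.05 (edgeR quasi-likelihood test with Benjamini-Hochberg adjustment over all tested genes; 4.68% of all tested genes were called higher), and 0 were lower (3.75% of all tested genes). At an unadjusted p under 0.05, 13 members were higher (13.6% of all tested genes) and 0 were lower (12.8%). DESeq2 called 4 members higher (Fbl, Pes1, Bop1 and Nop16; 8.19% of all genes it tested) and 0 lower, and limma-voom called 2 (Pes1 and Nop16; 4.47%) and 0 lower. With the replicate number as a block, edgeR called 2 (Nolc1 and Nop16; 5.82%) and 0 lower. The groups did not overlap in 3 members, Fbl, Pes1 and Nop16, all higher in Mitol Δ/Δ, where 8.17% of all tested genes did not overlap in that direction, and in 0 members did they separate the other way (7.18% of all tested genes).

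The fitted increases went up to 1.42-fold. The 95% interval of the log2 fold change lay above 0 in 13 members and held 0 in the other 26. It reached a 1.5-fold increase in 14 members and a 2-fold increase in 1, Rrp12, whose upper bound was 1.01 on the log2 scale. The lowest bound was -0.41, in Ebna1bp2.

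**Figure D1:**
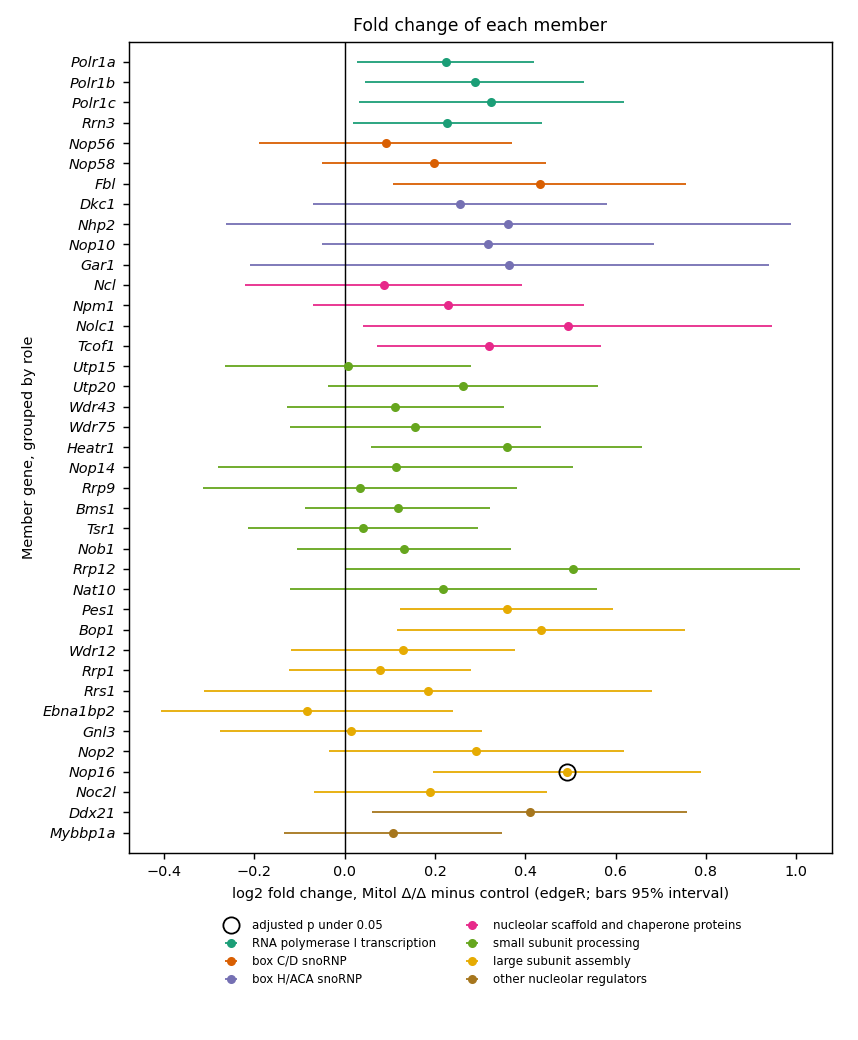
Log2 fold change of each member, Mitol Δ/Δ minus control (x axis), by gene (y axis, coloured by role), with points for the edgeR estimate and bars for the 95% interval over 4 libraries per group. All points but that of Ebna1bp2 lie to the right of 0, and Nop16 alone is ringed as past an adjusted p of 0.05.

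Nop16, a nucleolar protein of large subunit assembly, was the member with the lowest p. It lies on chromosome 13 of GRCm39 from 54731998 to 54738678, minus strand, with 5 exons in its canonical transcript. Its normalized counts were 617, 608, 516 and 517 in Mitol Δ/Δ replicates 1 to 4 and 456, 371, 452 and 308 in control replicates 1 to 4. Every Mitol Δ/Δ library was above every control library. The log2 fold change was 0.49 ± 0.14 (SE), a 1.41-fold increase (edgeR quasi-likelihood test, adjusted p = 0.0454, higher in 4 of 4 libraries), and the exact permutation test gave its smallest possible p of 0.0286. The call was lost in 6 of the 8 fits that left out a library (edgeR, adjusted p = 0.116, 0.115 and 0.0723 without Mitol Δ/Δ replicates 1, 2 and 3, and 0.120, 0.0560 and 0.107 without control replicates 2, 3 and 4), with log2 fold changes from 0.39 to 0.58 over all 8, and also with upper quartile scaling (adjusted p = 0.0581) and library totals alone (adjusted p = 0.0524). Nop16 shares 235 exon bases, 11.1% of its exon bases, with Higd2a on the opposite strand, whose own log2 fold change was 0.23 (edgeR, adjusted p = 0.455), and the strand setting of the counting is not given in the sources used here. The promoter of Nop16, from 250 bases before to 50 bases after the RefSeq start, is shown because it belongs to the single member called, in RefSeq's GRCm38.p6 at chr13:54590025-54590324, minus strand, where the letters CACGTG, the E-box that MYC and MAX bind, do not occur and no bases are in capitals.
Nop16 promoter: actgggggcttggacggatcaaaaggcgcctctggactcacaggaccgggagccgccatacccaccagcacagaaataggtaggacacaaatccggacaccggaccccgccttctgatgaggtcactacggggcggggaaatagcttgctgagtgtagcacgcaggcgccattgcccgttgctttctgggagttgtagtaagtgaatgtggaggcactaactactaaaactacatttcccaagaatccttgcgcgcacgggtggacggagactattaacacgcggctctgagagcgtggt

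The other large subunit factors were led by Pes1 and Bop1, which with Wdr12 form the PeBoW complex needed to process the rRNA of the large subunit. Pes1 had normalized counts of 672, 700, 694 and 637 in Mitol Δ/Δ replicates 1 to 4 and of 625, 485, 486 and 489 in control replicates 1 to 4. The groups did not overlap, with control replicate 1 at 625 just below Mitol Δ/Δ replicate 4 at 637. Its log2 fold change was 0.36 ± 0.11 (edgeR quasi-likelihood test, adjusted p = 0.0599, higher in 4 of 4 libraries; exact permutation p = 0.0286), short of the threshold, and DESeq2 and limma-voom gave adjusted p of 0.0176 and 0.0478. Bop1 had normalized counts of 894, 1066, 1065 and 794 in Mitol Δ/Δ and of 910, 643, 673 and 571 in control replicates 1 to 4. Control replicate 1 lay above 2 of the 4 Mitol Δ/Δ libraries, and the other controls lay below all of them. The log2 fold change was 0.43 ± 0.15 (edgeR, adjusted p = 0.0852), and without control replicate 1 it was 0.60 (edgeR, adjusted p = 0.0263). Wdr12, the remaining subunit, had a log2 fold change of 0.13 ± 0.11 (edgeR, adjusted p = 0.504), so the values of the complex ranged from 0.13 to 0.43. Bop1 shares 12.8% of its exon bases with Hsf1 on the opposite strand.

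The promoter of Pes1 is given beside that of Nop16 as the second member by p and one that holds the E-box. It was chosen after the values were seen. It lies at chr11:3963725-3964024 of GRCm38.p6, plus strand, with CACGTG in capitals starting 2 bases after the first base of the transcript.
Pes1 promoter: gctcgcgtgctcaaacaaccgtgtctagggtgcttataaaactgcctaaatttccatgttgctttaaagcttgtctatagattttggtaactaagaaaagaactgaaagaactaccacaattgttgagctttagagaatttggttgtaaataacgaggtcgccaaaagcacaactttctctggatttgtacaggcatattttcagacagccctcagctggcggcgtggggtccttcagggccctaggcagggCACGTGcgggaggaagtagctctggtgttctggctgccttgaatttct

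Among the remaining large subunit factors, Nop2, an rRNA methyltransferase, had a log2 fold change of 0.29, Noc2l 0.19, Rrs1 0.18 and Rrp1 0.077. Gnl3, which encodes nucleostemin, a GTPase of the nucleolus in dividing cells, hardly differed. Its normalized counts were 1215, 1150, 976 and 835 in Mitol Δ/Δ and 1110, 1078, 1095 and 805 in control replicates 1 to 4, a log2 fold change of 0.014 ± 0.13 (edgeR, adjusted p = 0.965, 95% interval from -0.28 to 0.30). Ebna1bp2, a factor of early large subunit particles, was the one member with a value below 0. It had normalized counts of 236, 300, 243 and 219 in Mitol Δ/Δ and of 303, 219, 281 and 242 in control replicates 1 to 4, a log2 fold change of -0.085 ± 0.15 (edgeR, adjusted p = 0.762). Its groups lay within each other's range, and without control replicate 1 the value was 0.0072.

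**Figure D2:**
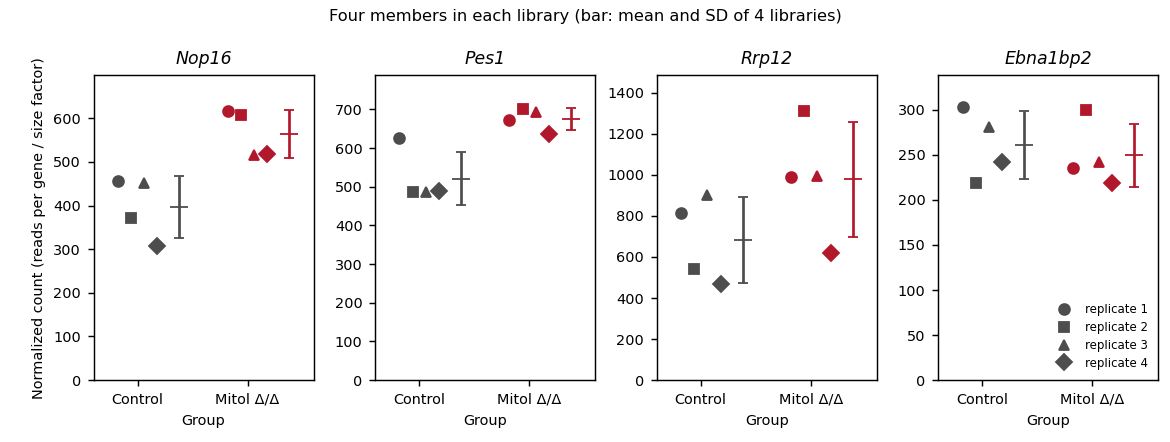
Normalized counts (y axis, reads per gene divided by the size factor, from 0) of Nop16, Pes1, Rrp12 and Ebna1bp2 in the control and the Mitol Δ/Δ libraries (x axis), with 1 symbol per replicate and bars for the mean ± SD of 4 libraries. The groups are apart in Nop16 and Pes1, overlap through Mitol Δ/Δ replicate 4 at 621 in Rrp12, and cover the same range in Ebna1bp2.

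The RNA polymerase I genes gave the most even values. Polr1a and Polr1b, which encode its 2 largest subunits, Polr1c, a subunit shared with RNA polymerase III, and Rrn3, the factor that makes the polymerase competent to start, had log2 fold changes of 0.22, 0.29, 0.32 and 0.23. All 4 had an unadjusted p under 0.05, and none passed the adjusted threshold (edgeR, adjusted p from 0.126 to 0.156). In all 4 genes, 3 of 4 Mitol Δ/Δ libraries were above every control library. Polr1a had normalized counts of 1345, 1460, 1412 and 1237 in Mitol Δ/Δ and of 1246, 1046, 1208 and 1113 in control replicates 1 to 4, and Mitol Δ/Δ replicate 4 fell just below control replicate 1. Rrn3 showed the same crossing, with 784 in Mitol Δ/Δ replicate 4 and 794 in control replicate 1.

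Within the box C/D snoRNP, which carries out the 2′-O-methylation of rRNA, the catalytic methyltransferase Fbl stood apart from the scaffold proteins Nop56 and Nop58. Fbl had normalized counts of 687, 790, 633 and 606 in Mitol Δ/Δ and of 601, 495, 540 and 357 in control replicates 1 to 4, so the groups did not overlap. Its log2 fold change was 0.43 ± 0.15 (edgeR, adjusted p = 0.0912, higher in 4 of 4 libraries; exact permutation p = 0.0286; DESeq2, adjusted p = 0.0472). Nop56 had normalized counts of 856, 971, 777 and 763 in Mitol Δ/Δ and of 944, 721, 830 and 629 in control replicates 1 to 4, which overlap throughout. Its log2 fold change was 0.091 ± 0.13 (edgeR, adjusted p = 0.696), and that of Nop58 was 0.20 ± 0.11 (edgeR, adjusted p = 0.296). No test was made of the difference between Fbl and its partners, and the 95% intervals, from 0.11 to 0.76 for Fbl and from -0.19 to 0.37 for Nop56, overlapped.

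The box H/ACA snoRNP turns uridine of rRNA into pseudouridine, and its 4 core genes also serve telomerase RNA. Dkc1, the pseudouridine synthase, Nhp2, Nop10 and Gar1 had log2 fold changes of 0.26, 0.36, 0.32 and 0.36. None had an unadjusted p under 0.05 (edgeR, adjusted p from 0.257 to 0.455). Their libraries spread widely. Gar1 had normalized counts of 135, 142, 128 and 103 in Mitol Δ/Δ and of 164, 72.4, 87.6 and 70.1 in control replicates 1 to 4, so that control replicate 1 was the highest of the 8 and the other controls lay below every Mitol Δ/Δ library. Nhp2 had 211, 229, 180 and 121 against 228, 122, 144 and 79.0, with control replicate 1 again beside the highest libraries. Gar1 and Nhp2 have the lowest raw counts of the members with Rrs1, down to 68 and 88 reads in a library.

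The nucleolar scaffold and chaperone genes were split. Nolc1, a protein that binds snoRNPs and RNA polymerase I, had normalized counts of 834, 930, 772 and 585 in Mitol Δ/Δ and of 770, 521, 566 and 339 in control replicates 1 to 4. It reached one of the 3 largest log2 fold changes among the members, 0.49 ± 0.21, with 3 of 4 Mitol Δ/Δ libraries above every control library (edgeR, adjusted p = 0.154). Tcof1, which encodes treacle, a cofactor of rRNA transcription, had a log2 fold change of 0.32 ± 0.11 (edgeR, adjusted p = 0.0996). Npm1, the histone chaperone nucleophosmin, had 0.23 ± 0.14 (edgeR, adjusted p = 0.316). Ncl, which encodes nucleolin, had normalized counts from 4812 to 6484 in Mitol Δ/Δ and from 3828 to 6165 in control libraries, and a log2 fold change of 0.086 ± 0.14 (edgeR, adjusted p = 0.743). Control replicate 4 was the lowest of the 8 libraries in all 4 genes.

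The 12 small subunit processing factors had a median log2 fold change of 0.12, and 2 of them, Heatr1 and Rrp12, had an unadjusted p under 0.05. Rrp12, a factor for maturation and export of the small subunit, had the largest log2 fold change of the members, 0.51 ± 0.23 (edgeR, adjusted p = 0.188, 3 of 4 libraries above every control library), with normalized counts of 990, 1309, 995 and 621 in Mitol Δ/Δ and of 816, 541, 901 and 468 in control replicates 1 to 4. Mitol Δ/Δ replicate 4 lay among the controls. Heatr1, a UTP protein that binds the early rRNA precursor, had 0.36 ± 0.14 (edgeR, adjusted p = 0.122), and Utp20, another large UTP protein, had 0.26. The remaining 9 ranged from 0.0070 in Utp15 to 0.22 in Nat10, the rRNA cytidine acetyltransferase, with Wdr75 at 0.16, Nob1 at 0.13, Bms1 at 0.12, Nop14 and Wdr43 at 0.11, Tsr1 at 0.040 and Rrp9 at 0.034. Utp15, a UTP protein that works with rRNA transcription, had normalized counts of 553, 633, 496 and 420 in Mitol Δ/Δ and of 487, 525, 555 and 498 in control replicates 1 to 4, so the Mitol Δ/Δ libraries lay on both sides of the controls. Bms1, a GTPase of small subunit assembly, varied least within Mitol Δ/Δ, at 729 ± 11.8 normalized counts against 664 ± 62.5 in controls (SD, n = 4 each; exact permutation p = 0.114).

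Of the other regulators, Ddx21, an RNA helicase that couples rRNA transcription and processing, averaged 2012 ± 173 normalized counts over Mitol Δ/Δ and 1498 ± 408 over control libraries (SD, n = 4 each), a log2 fold change of 0.41 ± 0.16 (edgeR, adjusted p = 0.129). Mybbp1a, a nucleolar partner of MYB, had 4935, 5390, 4672 and 4311 in Mitol Δ/Δ and 5294, 3991, 4659 and 3771 in control replicates 1 to 4, a log2 fold change of 0.11 ± 0.11 (edgeR, adjusted p = 0.583).

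The members were shifted together by library as well as by group. Mitol Δ/Δ replicate 2 was the highest of the 8 libraries in 27 of 39 members (15.5% of all tested genes), and control replicate 4 was the lowest in 29 (21.2%). Within the groups, control replicate 1 was the highest control in 32 members (27% of all tested genes) and Mitol Δ/Δ replicate 4 the lowest Mitol Δ/Δ library in 32 (29.7%). Control replicate 1 also lay above Mitol Δ/Δ replicate 4 in 33 members, where 49.3% of all tested genes did. The median over the members of the log2 normalized count, taken from each gene's mean over the libraries, was 0.18, 0.34, 0.10 and -0.092 in Mitol Δ/Δ replicates 1 to 4 and 0.12, -0.21, -0.031 and -0.36 in control replicates 1 to 4. The group means of these medians were 0.13 ± 0.18 and -0.12 ± 0.21 (SD, n = 4 each), so the groups overlapped. Reads on the members made up 0.350% to 0.501% of a library's counts on named genes.

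**Figure D3:**
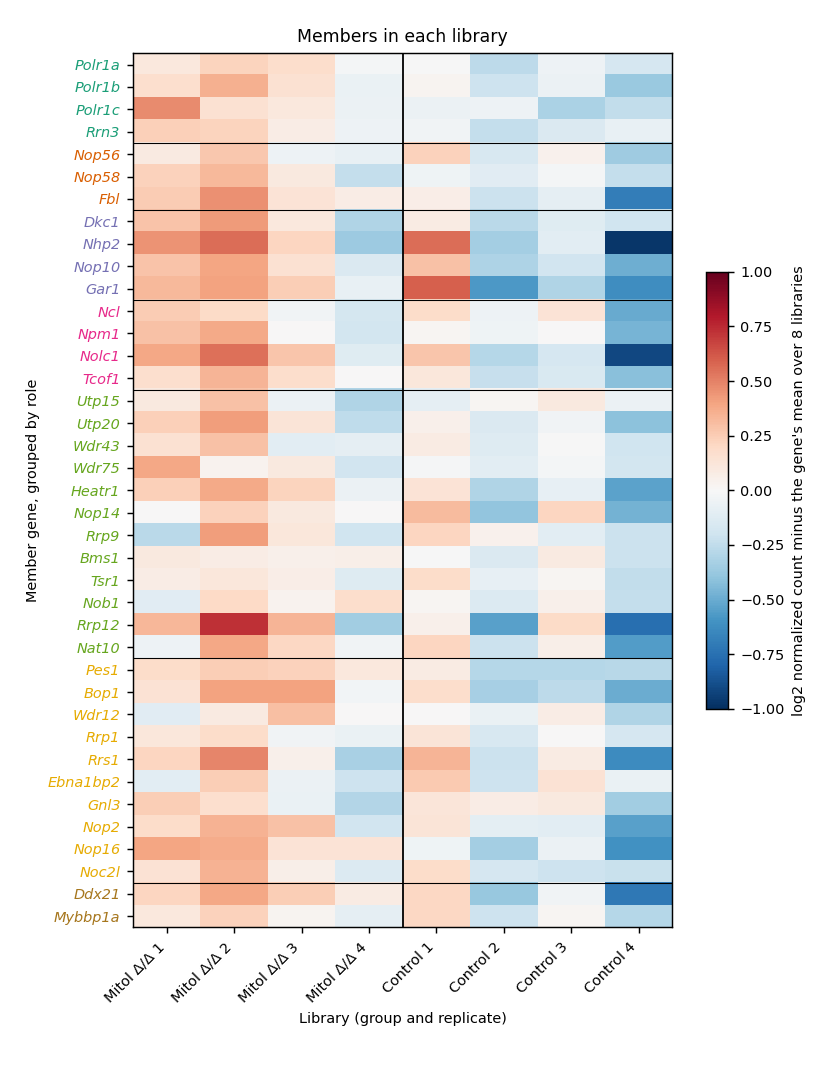
Log2 normalized count of each member (y axis, grouped by role, lines between roles) in each library (x axis), relative to the gene's mean over the 8 libraries, from blue for lower to red for higher. Mitol Δ/Δ replicate 2 is red and control replicate 4 blue over most rows, while control replicate 1 is mostly red and Mitol Δ/Δ replicate 4 mostly blue.

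The number of calls depended on which library was left out, and it rose without either of these 2 crossing libraries. Without Mitol Δ/Δ replicate 4, 9 members were called higher (Polr1b, Nop58, Tcof1, Utp20, Heatr1, Rrp12, Pes1, Bop1 and Nop16; 8.77% of all tested genes were called higher in that fit). Without control replicate 1, 7 were (Nolc1, Tcof1, Heatr1, Pes1, Bop1, Nop16 and Ddx21; 4.64%). Without any one of the other 6 libraries, 0 members were called. Calls over all genes were fewer in these 6 fits too. Those called higher numbered from 167 of 16778 tested (without control replicate 2) to 414 of 16695 (without control replicate 3). With all libraries, 770 of 16444 were called higher. The number of members whose groups did not overlap was 17 without Mitol Δ/Δ replicate 4 (14.7% of all tested genes) and 13 without control replicate 1 (12.8%), all higher in Mitol Δ/Δ. The median log2 fold change was 0.32 and 0.31 in these fits, and 0.16 without control replicate 4. What set these libraries apart was not tested.

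By level, the members spread from the upper end of the tested genes to below their middle. Per kilobase of the canonical transcript and 1000000 counts of the library, Mybbp1a was highest at 111, followed by Rrp1 at 105 and Noc2l at 94.8, above 98.4%, 98.2% and 97.9% of tested genes. Their levels were 113 ± 10.5, 106 ± 8.32 and 99.3 ± 13.8 in Mitol Δ/Δ and 109 ± 13.7, 104 ± 7.47 and 90.3 ± 10.8 in control libraries (SD, n = 4 each), so these neighbours did not differ beyond their spread. Rrp1, a factor of large subunit rRNA processing, had normalized counts of 2167, 2275, 1958 and 1920 in Mitol Δ/Δ and of 2191, 1798, 2013 and 1785 in control replicates 1 to 4. Noc2l, an inhibitor of histone acetyltransferases in the NOC family, had 2750, 3162, 2587 and 2257 in Mitol Δ/Δ and 2827, 2210, 2151 and 2126 in control replicates 1 to 4. Neither gene separated the groups, and in both control replicate 1 was the highest control. Ncl at 70.2, Npm1 at 61.9, Fbl at 51.1 and Gnl3 at 50.1 came next, and Ebna1bp2 was lowest at 4.44.

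The order depends on the length used. Canonical transcripts of Ncl, Nop58 and Wdr12 are annotated at 8288, 9561 and 10012 bases. Per kilobase of coding sequence, Ncl was highest at 274, Nop10, which has 192 coding bases, came next at 243, and Rrp1 and Mybbp1a followed at 144 and 121. Neither scale moves a fold change, which is taken within a gene. By role, the median level per kilobase of canonical transcript was 13.2 in the box H/ACA genes, 17.9 in the small subunit factors, 21.9 in the RNA polymerase I genes, 27.98 in the large subunit factors, 35.8 in the box C/D genes, 48.3 in the scaffold genes and 75.1 over the 2 other regulators.

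The remainder of the pathway was read from 4 lists of 131 other ribosome biogenesis genes, all 131 of them tested. Of these, 104 had a fitted log2 fold change above 0 (47.7% of all tested genes), and the median was 0.15. At an adjusted p under 0.05, 3 were higher and 0 lower (4.68% and 3.75% of all tested genes). The called genes were Wdr18 of the large subunit list (log2 fold change 0.47, edgeR, adjusted p = 0.0371), Pno1 of the small subunit list (0.87, edgeR, adjusted p = 0.0473) and Polr1d, a subunit shared by RNA polymerases I and III (0.46, edgeR, adjusted p = 0.0482), each higher in 4 of 4 libraries than in every control. Pno1, a partner of Nob1 in the last step of small subunit maturation, had normalized counts of 213, 248, 180 and 167 in Mitol Δ/Δ and of 166, 113, 93.3 and 69.2 in control replicates 1 to 4. As with Nop16, these 3 calls were lost when any 1 of 6 libraries was left out, Mitol Δ/Δ replicates 1, 2 and 3 and control replicates 2, 3 and 4 (edgeR, adjusted p up to 0.127 for Pno1, 0.111 for Wdr18 and 0.133 for Polr1d), and those of Pno1 and Polr1d also with upper quartile scaling and library totals alone, and that of Polr1d without a filter (edgeR, adjusted p = 0.0519). The groups did not overlap in 17 of the 131 genes in the upward direction (8.17% of all tested genes). In the downward direction they did not overlap in 1 (7.18% of all tested genes).

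Among single genes of these lists, Ubtf, which encodes the factor that holds rRNA genes open, had a log2 fold change of 0.072, Taf1b of the selectivity factor -0.072, Naf1, an assembly factor of H/ACA particles, 0.22, and Snu13, the C/D core protein that binds the RNA first, 0.15. None passed the threshold (edgeR, adjusted p from 0.497 to 0.788).

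The ribosomal proteins, the end users of the pathway, were checked beside it. Of 78 ribosomal protein genes, 70 were above 0 (47.7% of all tested genes), with a median of 0.14. At an adjusted p under 0.05, 6 were higher and 0 lower (4.68% and 3.75% of all tested genes). The number higher was 0 without Mitol Δ/Δ replicate 2 or control replicate 2, 1 to 3 without Mitol Δ/Δ replicate 1 or 3 or control replicate 4, and up to 9 without control replicate 1. Over all tested genes, those called higher numbered 242 and 167 without Mitol Δ/Δ replicate 2 and control replicate 2. They numbered 265 to 310 without Mitol Δ/Δ replicate 1 or 3 or control replicate 4, and 782 without control replicate 1. The ribosomal protein genes with the lowest p in each subunit were Rps2 and Rps27a (0.46 and 0.37, edgeR, adjusted p = 0.0177 and 0.0195) and Rpl14 and Rpl29 (0.35 and 0.42, edgeR, adjusted p = 0.0238 and 0.0301), each higher in 4 of 4 libraries than in every control. Rpl5 and Rpl11, which with 5S rRNA bind MDM2 when ribosome assembly is disturbed, had 0.097 and 0.22 (edgeR, adjusted p = 0.563 and 0.198).

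Transcripts of upstream regulators did not show a common direction. Myc had normalized counts of 1911, 1553, 1441 and 1915 in Mitol Δ/Δ and of 2557, 1616, 1971 and 1693 in control replicates 1 to 4, a log2 fold change of -0.22 (edgeR, adjusted p = 0.367). Mycn, which HSCs also express, had 0.31 and Max, the partner of both, had -0.33 (edgeR, adjusted p = 0.112 and 0.105). Without control replicate 1, Mycn at 0.43 and Max at -0.41 were called (edgeR, adjusted p = 0.0415 and 0.0380). On the p53 side, Trp53 was higher with a log2 fold change of 0.31 and its target Cdkn1a with 1.99 (edgeR, adjusted p = 0.0423 and 0.0170, 4 of 4 libraries above every control in both), and Mdm2 had -0.18 (edgeR, adjusted p = 0.326). Cdkn1a was called in every fit with a library left out. Trp53 was called without Mitol Δ/Δ replicate 4 or control replicate 1 only, and not without any one of the other 6 libraries (edgeR, adjusted p from 0.0827 to 0.127) nor with upper quartile scaling (adjusted p = 0.0711), library totals alone (adjusted p = 0.0662) or the replicate block (adjusted p = 0.0543).

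Proliferation genes had a larger median log2 fold change than the members, but the ranges overlapped. The lowest proliferation gene was Pcna at 0.34 (edgeR, adjusted p = 0.367), and the members reached 0.51. Of 18 cell cycle genes, 12 were higher and 0 lower at an adjusted p under 0.05 (4.68% of all tested genes higher), with a median log2 fold change of 1.08, and their summed normalized counts were 19230 to 40260 in Mitol Δ/Δ and 12850 to 18750 in control libraries. The number called was 3 to 6 without Mitol Δ/Δ replicate 1 or 2 or control replicate 2 or 4, and 17 without Mitol Δ/Δ replicate 4. Calls over all tested genes moved the same way. Those called higher numbered 167 to 309 in the former fits and 1482 without Mitol Δ/Δ replicate 4, against 770 with all libraries. The median over this list, taken like that over the members, was 0.89, 0.98, 0.53 and -0.13 in Mitol Δ/Δ replicates 1 to 4 and -0.87, -0.70, -0.27 and -0.55 in control replicates 1 to 4. Mitol Δ/Δ replicate 4 was the lowest of its group in both lists. By list median, control replicate 1 was the lowest library of the 8 in the proliferation list and the highest control in the member list. The proliferation genes were split in this. Control replicate 1 was the lowest of the 8 in Mki67, Birc5, Aurkb and Ccna2, but the highest control in Mcm2 to Mcm7. Mcm5 had normalized counts of 2673, 2048, 1923 and 1184 in control replicates 1 to 4. In Mcm2 to Mcm7, as in most members, Mitol Δ/Δ replicate 2 was the highest and control replicate 4 the lowest of the 8. The part of dividing cells in the members' values was not tested.

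**Figure D4:**
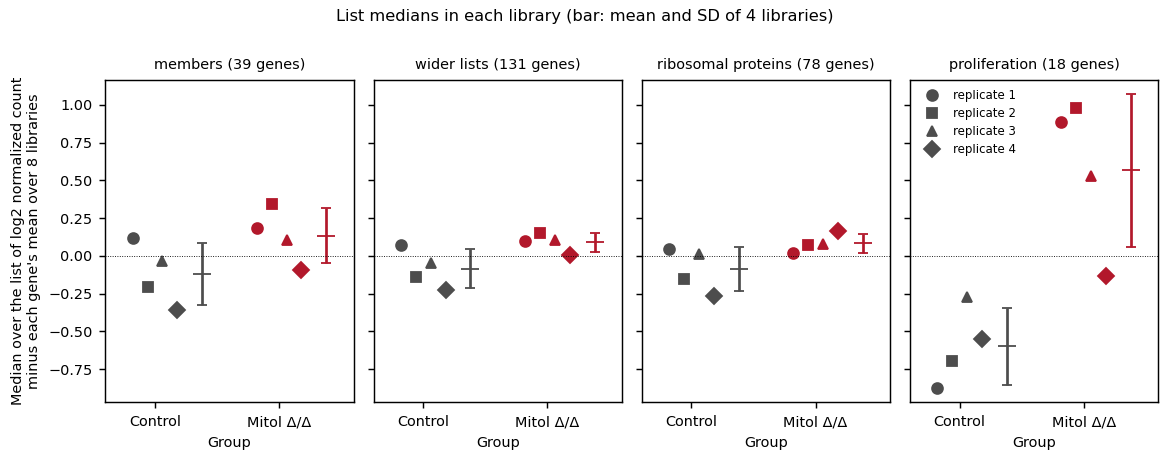
Median over each gene list of the log2 normalized count minus the gene's mean over 8 libraries (y axis), for control and Mitol Δ/Δ libraries (x axis), with 1 symbol per replicate and bars for the mean ± SD of 4 libraries. Members, other biogenesis genes and ribosomal proteins are shifted by less than proliferation genes, and control replicate 1, a circle, sits high in the first panel and lowest in the last.

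Markers of other blood cells were checked by list. The table held 7 of 8 genes of neutrophils, 4 of 8 of B cells, 2 of 6 of T cells and 1 of 6 of mast cells and basophils, and 1 of each list was tested and 0 were called. In that order, their summed normalized counts were 16.9 to 36.6, 137 to 150, 20.1 to 36.0 and 7.32 to 13.8 in Mitol Δ/Δ and 50.1 to 88.9, 146 to 204, 35.0 to 54.3 and 11.3 to 21.1 in control libraries. Of 8 red-cell genes, 8 were in the table, 4 were tested and 1 was called, Hbb-bt, with a log2 fold change of 1.29 (edgeR, adjusted p = 0.0442, lost without Mitol Δ/Δ replicate 1, 2 or 3 or control replicate 2 or 3, at 0.0591 to 0.105, and with DESeq2, at 0.0503, and the replicate block, at 0.0540), and the sum was 918 to 3410 in Mitol Δ/Δ and 256 to 737 in control libraries. The level of Hbb-bt was above 98.6% of tested genes. Of 6 megakaryocyte genes, 5 were in the table and 4 were tested, and Pf4 was lower, with a log2 fold change of -1.69 (edgeR, adjusted p = 0.0202, lost without Mitol Δ/Δ replicate 2 or 3 or control replicate 4, at 0.0549 to 0.0641). Itga2b had a log2 fold change of 0.49, with normalized counts of 287, 351, 1111 and 1440 in Mitol Δ/Δ replicates 1 to 4 and 519 to 589 in control libraries, and Vwf had -0.037 (edgeR, adjusted p = 0.476 and 0.925). The sum over the megakaryocyte list was 2381 to 5085 in Mitol Δ/Δ and 3143 to 4827 in control libraries, which overlap. Their part in the members' values was not tested.

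In sequence, the members share short promoter motifs to an extent that can be set beside all genes. RefSeq promoters of 300 bases were found for 33 of 39 members, 36 promoters in all, and not for Bop1, Fbl, Npm1, Rrp12, Rrs1 and Tcof1. Exact matches were searched on both strands, and overlapping matches counted once per promoter. CACGTG, the E-box, occurred in 7 of the 36 (19.4%), against 7.15% of all 32851 promoters and 9.76% of the promoters of tested genes. The 7 genes were Mybbp1a, Nop2, Pes1, Rrn3, Tsr1, Utp20 and Wdr43, whose log2 fold changes ran from 0.040 in Tsr1 to 0.36 in Pes1. CCGGAA, a core of ETS factor sites, occurred in 15 (41.7% against 14.9% and 26%), and TCGCGA, part of a palindrome of housekeeping promoters, in 5 (13.9% against 2.5% and 4.64%). GGGCGG, the GC box, occurred in 23 (63.9% against 35.7% and 59.9%) and GCATGC, part of the NRF1 site, in 2 (5.56% against 7.93% and 9.65%). These are matches of letters in one window per start site, and none was tested against the fold changes.

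The genes lie on 19 chromosomes, with 5 each on chromosomes 1 and 11. By annotation, 14 members share at least 5% of their exon bases with exons on the opposite strand, most of all Rrs1 (39.4%), Tsr1 (34.2% with Srr), Nhp2 (25.2% with Rmnd5b) and Dkc1 (20.1% with Mpp1), and their values may hold reads of those partners. Pseudogenes that resemble the coding sequence of a member were found for 14 members. Counts on those of them that had a row in the count table came to at most 2.42% of the member's own count, in Gar1. Many had no row, such as all 3 of Rrs1, and reads shared between a member and a copy were not measured.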

How the data were processed

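The 8 RNA-seq libraries, 4 per group, were each made from 100 sorted HSCs. The authors sequenced single-end reads, aligned them with STAR to mm39, merged alignments with SAMtools and used Subread to count them by gene. The deposited counts are not normalized. Annotation and strand setting of the counting are not given in the sources used here. Each row held at least 11 counts over the libraries. Of 23094 rows, 1029 without a symbol (0.335% to 0.467% of a library's counts) were left out.

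In edgeR (version 4.0.16), counts that passed filterByExpr were scaled by TMM and tested by quasi-likelihood with condition as the only term, with Benjamini-Hochberg adjustment over 16444 genes at 0.05. Normalized counts are counts divided by size factors of DESeq2 (version 1.42.0). Deviations by library used log2 of the normalized count plus 1. For single values a 2-sided exact permutation test ran over all 70 arrangements, with a smallest p of 0.0286. Positions are those of GENCODE M39 on GRCm39, which is the build mm39, and 97.1% of named genes matched it. Promoters are RefSeq's on GRCm38.p6. Copies were sought with blastn (version 2.17.0) at 90% identity over 150 bases. Alternatives were other scalings, no filter, DESeq2, limma-voom (limma version 3.58.1), the replicate number as a block and each library left out. Fits were tested on simulated data with fold changes larger than any fitted in the members. That test does not cover changes of the members' size. DESeq2 tested 16488 genes, since it filters on its own.

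One item of the marker lists is not reported here. The members and the lists were chosen with earlier results of these data known. Values in all libraries are given for members past the threshold, the members with the 3 highest and 3 lowest log2 fold changes, those with the 3 highest levels per length, and from the other lists for genes past the threshold with the lowest p and for 10 fixed genes by their fold change. Pes1, Bop1, Fbl, Polr1a, Nop56, Gar1 and Nhp2, with single values of other members, were added after the values were seen. The number of libraries limits precision, and since reads carry no molecular identifiers they do not count molecules.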

Additional observations from a re-analysis of the deposited data

Results flagged for a closer look

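In 4 of 90 sets of 4 values, from members and other listed genes in each group, 1 library stood apart from the other 3 by Dixon's criterion for the gap to the nearest library as a share of the range. Chance gives about 1 in 20 such sets. In control libraries, Pes1 was highest in replicate 1, at 625 normalized counts with the next at 489 (a gap of 0.976 of the range), and Noc2l was also highest in replicate 1, at 2827 with the next at 2210 (0.880). Gnl3 was lowest in control replicate 4, at 805 with the next at 1078 (0.894), and Npm1 was lowest there too, at 699 with the next at 934 (0.850). All 4 are in the control group, in the libraries that were most often its highest and its lowest over the members.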

How the results depend on the processing

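The members' median log2 fold change stayed above 0 in all 15 alternatives. The number of members called higher was 1 with RLE scaling or no filter, 0 with upper quartile scaling or library totals alone, 4 with DESeq2 and 2 with limma-voom, and from 0 to 9 with 1 library left out. For the 131 other biogenesis genes it was 3, but 1 with upper quartile scaling or library totals alone, 9 with DESeq2 and from 0 to 12 with 1 library left out, where 0 to 1 were called lower. The 12 were called without Mitol Δ/Δ replicate 4. Of all tested genes, 4.68% were called higher with all libraries, 8.19% with DESeq2 and 8.77% without Mitol Δ/Δ replicate 4. Over all genes, 1386 were called, 2315 with DESeq2 and from 359 (without control replicate 2) to 2501 (without Mitol Δ/Δ replicate 4). The genes whose value changed sign were none of them called in any alternative. With upper quartile scaling and library totals alone they were -0.057 and -0.048 in Utp15, -0.028 and -0.019 in Rrp9, -0.021 and -0.012 in Tsr1 and -0.049 and -0.038 in Gnl3, and Utp15 had -0.0064 with limma-voom. With 1 library left out they ranged from -0.087 to 0.12 in Utp15, -0.041 to 0.18 in Ncl, -0.0059 to 0.27 in Nop14, -0.11 to 0.13 in Rrp9, -0.025 to 0.13 in Tsr1, -0.18 to 0.0072 in Ebna1bp2 and -0.084 to 0.13 in Gnl3, and among other genes from -0.018 to 0.17 in Ubtf, -0.14 to 0.010 in Taf1b and -0.049 to 0.27 in Snu13. The cause was not tested.

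The groups share replicate numbers. Same-numbered libraries had deviations from their group means correlated at 0.080, -0.070, 0.053 and 0.067 across genes, and not every library correlated best with its own number, so the numbers were not taken as pairs. With the replicate number as a block, 2 members (Nolc1 and Nop16), 6 other biogenesis genes and 1652 genes in all were called, and Utp15 was at -0.0058. In that fit 5.82% of all tested genes were called higher. The lowest count of a member in a library was 68, in Gar1.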
